A study of Mus musculus with 10 samples.

Results

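The replication-dependent histone genes were examined in interscapular brown adipose tissue (iBAT) of mice that lacked the receptor tyrosine kinase AXL and of wild-type controls. They were taken as the protein-coding genes of the GENCODE vM21 annotation (GRCm38) whose symbols start with Hist1h, Hist2h, Hist3h or Hist4h, which gave 67 of the 41249 genes in the count tables. Of these, 54 lie in the Hist1 cluster on chromosome 13, 10 in the Hist2 cluster on chromosome 3, 2 in the Hist3 cluster on chromosome 11 and 1, Hist4h4, on chromosome 6. By protein, 6 encode linker histone H1, 18 encode H2A, 18 encode H2B, 12 encode H3 and 13 encode H4.

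RNA was sequenced from 10 male mice, 5 Axl KO and 5 WT. Both groups were put on a high-fat diet (HFD) at 6 to 8 weeks of age and kept on it for 24 weeks, as the labels give it, while the study's text gives a slightly later start and longer diet. The Axl KO mice are whole-body, constitutive knockouts made with a knockout-first gene-trap cassette (allele tm1a) in the Axl gene, so the receptor is missing from every cell type and not from adipocytes alone, and the controls were WT littermates, all on a C57BL/6N background. Libraries held 5431014 to 9580215 counted reads, and levels are given as normalized CPM, the usual depth-scaled read count, with library sizes corrected by TMM scaling. Axl itself had 3 to 15 counts in the Axl KO mice and 224 to 383 in the WT mice, and its level was 43.1 ± 5.9 CPM (SD, n = 5) in WT and 1.57 ± 0.65 CPM (n = 5) in Axl KO (log2 fold change -4.77, adjusted p = 9.95e-08 by edgeR), the direction the labels give. The brown adipocyte markers were abundant in every mouse, with Fabp4, a fatty acid carrier, at a mean of 6731 CPM, Ucp1, the thermogenic uncoupling protein, at 4838 CPM and Cidea, a lipid droplet protein, at 1751 CPM. Skeletal muscle RNA differed widely between libraries, since its 10 markers summed to 5.28 to 3060 CPM in Axl KO and to 746 to 3674 CPM in WT mice, led by Myh4, Acta1 and Ckm.

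Histones package DNA into nucleosomes, with H2A, H2B, H3 and H4 in the core and H1 on the linker. Replication-dependent histone genes are known to be switched on in S phase, when new DNA has to be packaged, and their mRNAs end in a conserved stem-loop, bound by the stem-loop binding protein SLBP, in place of a poly(A) tail. Outside the cycle some of these genes also give longer, polyadenylated transcripts, and the replication-independent variants, such as those encoded by H3f3a and H3f3b, are made from ordinary polyadenylated mRNAs. Adult fat tissue holds mostly cells that do not divide.

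The stem-loop is the sequence that sets these mRNAs apart, so the 6 forms found among the 67 genes are printed with an example gene each. The search looked for the motif GGNNNTTTNNANNNCC, with the inner bases of the stem complementary, within 150 bases after the stop codon of an annotated transcript, and capitals mark the stem. The examples are Hist1h1c at chr13:23739512-23739527, Hist1h4h at chr13:23531458-23531473, Hist1h3e at chr13:23561903-23561918, Hist2h4 at chr3:96262939-96262954, Hist1h4b at chr13:23757366-23757381 and Hist2h2ac at chr3:96220418-96220433, all in the 3′ UTR and given for the 16 bases of the stem-loop in GRCm38. Hist1h3e, Hist2h4 and Hist2h2ac lie on the minus strand and the others on the plus strand.
Hist1h1c: caaaaGGCTCTtttcAGAGCCaccactc
Hist1h4h: ccaaaGGCCCTtttcAGGGCCgcccaca
Hist1h3e: aaaacGGCTCTtttaAGAGCCacctcca
Hist2h4: ctaacGGCCCTttttAGGGCCaaccaca
Hist1h4b: caaaaGGTCCTtttcAGGACCactcact
Hist2h2ac: aaaaaGGCTCTttttAGAGCCaccaaat

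In all, 44 of the 67 histone genes (65.7%) held a match, or 44 of the 51 (86.3%) for which at least 40 bases after the stop codon are annotated. Among the other protein-coding genes 3 of 21607 (0.0139%) held one, namely H2afx, H2bfm and Ttc14, and on the opposite strand of the same windows there was none. The form of Hist1h1c was shared by 26 genes of the H1, H2A, H2B and H3 families, and that of Hist1h4h by 7 genes, all of the H4 family. The form of Hist1h3e was found in 6 genes, those of Hist2h4 and Hist1h4b in 2 H4 genes each, and that of Hist2h2ac in that gene alone. The first base of the match lay 22 to 59 bases after the stop codon, with a median of 32. Hist1h3g and Hist1h4a each had a sequence that differed by 1 letter from the nearest of these forms and was not counted as a match. Hist1h2bc, Hist2h2be, Hist1h2bq and Hist1h2br had no sequence within 5 letters of one in their annotated windows. Hist1h1a had none either, but only 48 bases are annotated there, too few to reach the farthest matches. For 16 genes fewer than 40 bases are annotated, so that nothing can be read from their lack of a match.

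The annotation also splits the genes by how far their transcripts run. For 31 genes, a protein-coding transcript is spliced or ends more than 100 bases past the stop codon, and these are called long here. The other 36 have short, unspliced transcripts, and for 13 of the 67 genes no base after the stop codon is annotated. A poly(A) signal, AATAAA or ATTAAA, stood in the last 50 bases of an annotated transcript of 17 of the 67 genes (25.4%), against 17028 of 21799 other protein-coding genes (78.1%). A stem-loop and a long transcript are not exclusive, since 26 of the 44 genes with a match are long and 18 are short.

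Histone mRNA was a small part of each library. The 67 genes together took 0.0449% to 0.0539% of all counts, with a median of 0.0467%, or 35188 counts over the 10 mice. Counts were found for 61 genes, and 33 had a mean above 1 CPM over the 10 mice and entered the test. The 33 were 5 of 6 H1 genes, 4 of 18 H2A genes, 8 of 18 H2B genes, 7 of 12 H3 genes and 9 of 13 H4 genes. A further 28 genes had 1 to 64 counts in all. No count was found for Hist1h2aa, Hist1h2ba, Hist1h2ao, Hist1h2ap, Hist1h2br and Hist1h4m, and 0 counts in 72927886 allow a level of up to 0.0411 CPM over the 10 mice, for counting error only. The members nearest to the limit for testing were Hist1h4k at a mean of 1.05 CPM and Hist1h1a at 1.00 CPM on the upper side, and Hist1h2bj and Hist1h4j at 0.846 and 0.845 CPM on the lower side.

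The counts were concentrated in a few genes. Hist1h1c alone took 28.1% of all histone counts, the first 3 genes took 51.3% and the first 10 took 85.5%. These 10 were Hist1h1c, Hist1h4h, Hist1h4d, Hist1h2bc, Hist1h4c, Hist1h1e, Hist1h2be, Hist2h2be, Hist3h2a and Hist2h4, and all but Hist1h4h are long. By family, H1 genes took 35.9% of the histone counts, H4 genes 35.0%, H2B genes 20.9%, H2A genes 5.02% and H3 genes 3.19%. Long genes took 81.0% of the histone counts, from 79.1% to 83.0% in single mice, and the 35 short genes other than Hist1h4h took 7.11%. These are counts per gene, so how many of a long gene's reads came from the stretch beyond the stem-loop cannot be told apart from reads on its coding part. Reads shared between near-identical copies bear on the shares by family and by transcript length, as given further on.

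Per kilobase of annotated exon, which scales by the full annotated length of the gene, the order at the top changed. Where the transcripts of a long gene mostly end near the stem-loop, that length is too large and the value here too low. Counts per gene cannot show how often this was so. Hist1h4h, a short H4 gene of 470 bases, had the highest level at 121 CPM per kb, followed by Hist1h1c at 87.5, Hist1h4d at 47.9, Hist1h2bc at 41.9 and Hist1h4c at 37.1 CPM per kb. Of the lower genes, Hist2h2bb was at 14.6 CPM per kb and Hist2h2ac at 10.8 CPM per kb, short genes like Hist1h4h. The replication-independent H1 variant H1f0, typical of cells that have stopped dividing, was at 44.6 CPM per kb, and the H3.3 genes H3f3b and H3f3a were at 20.4 and 16.5 CPM per kb. The H3 member with the highest level per length, Hist1h3e, was at 3.83 CPM per kb. Reads shared between near-identical copies bear on this order, as given further on.

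**Figure D1:**
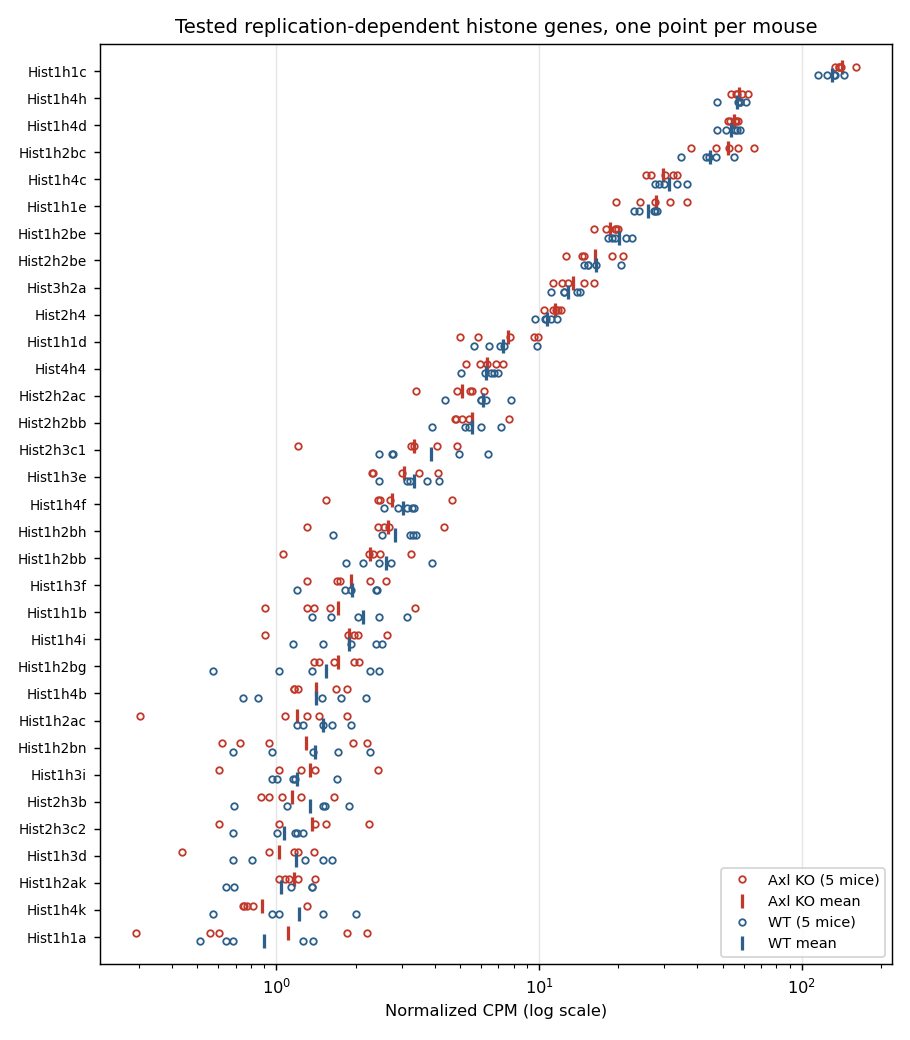
Normalized CPM (x axis, log scale) of the 33 tested histone genes (y axis, by mean level) in each mouse, with Axl KO in red and WT in blue, circles for mice and bars for group means. Hist1h1c lies between 116 and 161 CPM in every mouse, the lowest genes lie around 1 CPM, and for all 33 genes the groups overlap.

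No histone gene passed the test between the genotypes. Of the 33 tested, 0 were called by edgeR's quasi-likelihood test at an adjusted p below 0.05, beside 0.00728% of all 13733 genes tested, which is Axl alone. At an unadjusted p below 0.05 there were also 0 of 33, beside 1142 of all tested genes (8.32%), made up of 4.47% higher and 3.84% lower in Axl KO. DESeq2 called 9 genes (0.0655%), none of them a histone gene, and gave an unadjusted p below 0.05 to 0 of the 33, beside 6.92% of all tested genes. The 2 groups of mice overlapped for all 33 histone genes, whereas they were apart for 188 (1.37%) of all tested genes. Estimates were higher in Axl KO for 16 histone genes and lower for 17, with a median log2 fold change of -0.01, beside 49.7% higher and a median of -0.00082 over all tested genes. The lowest unadjusted p among the 33 was 0.108 and the lowest adjusted p was 0.646.

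How small a difference could have been seen depends on the level. Among the 10 genes with the most counts the standard error of the log2 fold change was 0.07 to 0.14, and for 9 of them the 95% interval lay within 0.5 on either side of 0. Over all 33 the standard error reached 0.51, and the interval lay within 1 on either side of 0 for 28. It reached past 1 for Hist1h1b, Hist1h2ac, Hist2h3c2, Hist1h4k and Hist1h1a, all with a mean below 2 CPM. A p above the threshold does not show that the levels were alike.

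**Figure D2:**
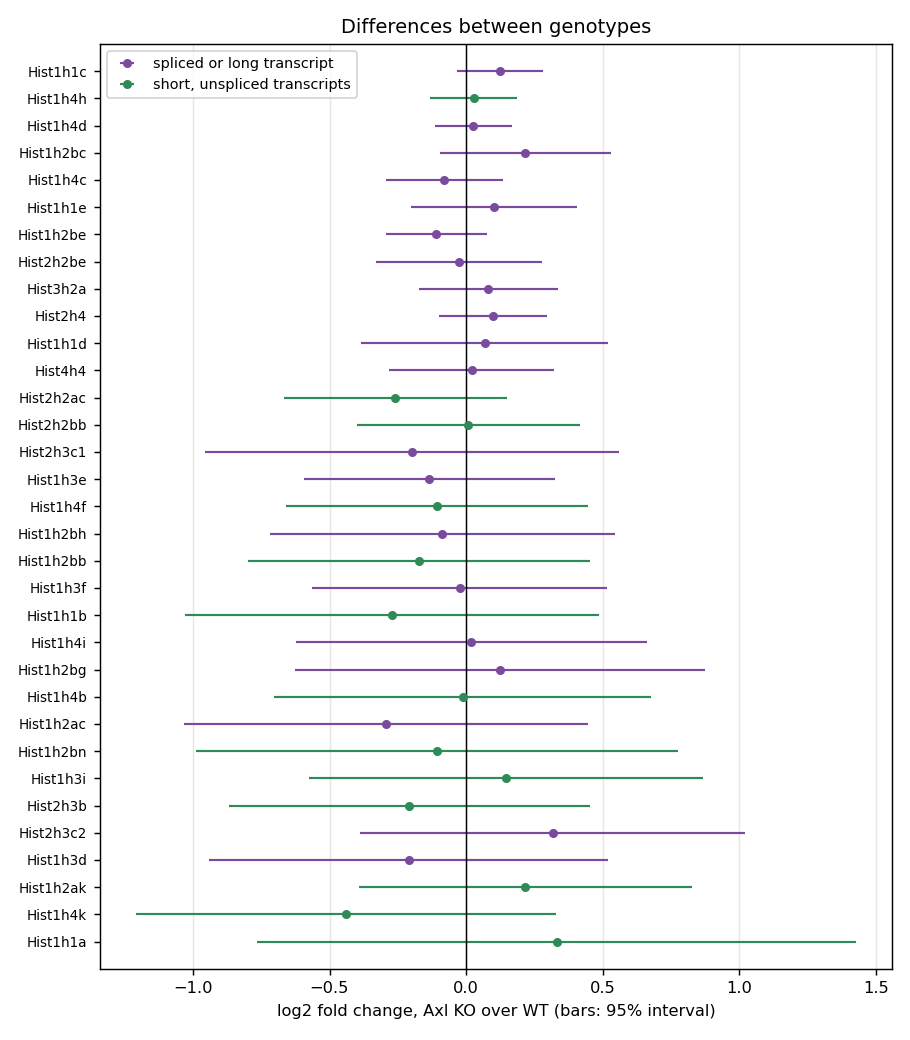
Log2 fold change of Axl KO over WT (x axis) with its 95% interval for the 33 tested histone genes (y axis, in order of mean level), in purple where an annotated transcript is long and in green where all are short. Every interval spans 0, and they widen from the top to the bottom, from Hist1h4d with a standard error of 0.07 to Hist1h1a with 0.51.

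H1 genes carried the most counts over the 10 mice, with 35.9% against 35.0% for H4 genes, but this order did not hold in every mouse. The mean sums of H1 and H4 genes were 181 and 169 CPM in Axl KO, and 167 and 168 CPM in WT. Hist1h1c (chr13:23738808-23740367), which encodes the linker histone H1.2, stood at 133, 139, 141, 138 and 161 CPM in the Axl KO mice and at 125, 133, 116, 134 and 145 CPM in the WT mice. Axl KO replicate 5 was the highest and WT replicate 3 the lowest, and the groups overlapped. The means were 142 ± 10.9 (SD, n = 5) and 131 ± 11.0 (n = 5), a log2 fold change of 0.13 (SE 0.07, adjusted p = 0.646 by edgeR, exact permutation p = 0.135). With single mice left out it ran from 0.08 without Axl KO replicate 5 (unadjusted p = 0.274) to 0.17 without WT replicate 5 (unadjusted p = 0.042, adjusted p = 0.726). Hist1h1e, which encodes H1.4, was at 24.1, 19.6, 31.6, 27.7 and 36.6 CPM in Axl KO and at 28.2, 22.9, 23.9, 27.4 and 27.7 CPM in WT, so that the lowest and the highest mouse were both Axl KO. Its log2 fold change was 0.10 (SE 0.14, adjusted p = 0.858). Hist1h1d had a mean of 7.43 CPM, Hist1h1b 1.92 and Hist1h1a 1.00, and the testis form Hist1h1t had 7 counts in all. Hist1h1e shares 496 bases on the same strand with Hist1h2be, whose annotated gene spans chr13:23583670-23621124, and how reads in that stretch were divided is not given in the sources used here.

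Of the H4 genes, which encode the same protein from many copies, Hist1h4h is the short one with a stem-loop and the most counts. It stood at 56.6, 56.1, 59.3, 53.6 and 62.6 CPM in Axl KO and at 58.0, 61.2, 58.3, 47.5 and 57.2 CPM in WT. All mice but WT replicate 4 lay above 53 CPM, and the log2 fold change was 0.03 (SE 0.07, adjusted p = 0.936, exact permutation p = 0.730). Its annotated transcript ends 93 bases past the stop codon, and the poly(A) signal ATTAAA lies between the stem-loop printed above and that end. Hist1h4d (chr13:23581598-23582735), with 822 annotated bases past the stop codon, was at 52.3, 57.3, 55.7, 53.3 and 56.3 CPM in Axl KO and at 56.7, 47.6, 58.4, 51.5 and 55.7 CPM in WT. The WT mice enclosed all Axl KO mice, and the log2 fold change was 0.03 (SE 0.07, adjusted p = 0.929). Hist1h4c ranged from 25.5 to 36.5 CPM over the 10 mice (log2 fold change -0.08, SE 0.10, adjusted p = 0.840) and Hist2h4 from 9.63 to 12.1 CPM (0.10, SE 0.09, adjusted p = 0.787). Summed over the family, the H4 genes were the steadiest of the families, at 169 ± 3.13 CPM in Axl KO and 168 ± 11.6 CPM in WT (SD, n = 5 each), and their spread over the 10 mice was 4.78% of the mean. Hist4h4, the member on chromosome 6, was at 5.03 to 7.27 CPM.

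H2B was led by Hist1h2bc (chr13:23684199-23692908), a gene with a spliced transcript and no match to the stem-loop in its annotated window. It stood at 57.2, 37.7, 47.1, 52.9 and 65.8 CPM in Axl KO and at 44.2, 43.1, 34.5, 47.2 and 55.1 CPM in WT. Axl KO replicate 2 lay below 4 of the WT mice, and the other Axl KO mice lay above 3 of them or more. The log2 fold change was 0.22 (SE 0.14, 95% interval -0.10 to 0.53, adjusted p = 0.688, exact permutation p = 0.230). With single mice left out it ran from 0.12 without Axl KO replicate 5 (unadjusted p = 0.396) to 0.31 without Axl KO replicate 2 (unadjusted p = 0.032, adjusted p = 0.605), and it was 0.13 without WT replicate 3. Hist1h2be, also spliced, ranged from 16.1 to 22.5 CPM (log2 fold change -0.11, SE 0.09, adjusted p = 0.744) and Hist2h2be from 12.7 to 20.9 CPM (-0.02, SE 0.14, adjusted p = 0.978). Hist2h2be, with 2192 annotated bases past the stop codon, also lacks a stem-loop match. The 18 H2B genes summed to 103 ± 14.2 CPM in Axl KO and 98.7 ± 10.9 CPM in WT (SD, n = 5 each).

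H2A and H3 genes had low counts, a reading limited by near copies as given below. The 18 H2A genes summed to 23.4 ± 2.85 CPM in Axl KO and 24.7 ± 1.74 CPM in WT (SD, n = 5 each), and a single gene, Hist3h2a, gave most of it with 11.1 to 16.2 CPM (log2 fold change 0.08, SE 0.12, adjusted p = 0.865). Hist3h2a lies wholly within the bounds of Trim17, a ubiquitin ligase gene on the same strand, and how reads there were divided is not given in the sources used here. Hist2h2ac, the short gene with its own form of the stem-loop, was at 3.40 to 7.81 CPM (log2 fold change -0.26, SE 0.19, adjusted p = 0.714). The 12 H3 genes summed to 14.8 ± 2.42 CPM in Axl KO and 15.9 ± 3.27 CPM in WT, with Hist2h3c1 and Hist1h3e on top at means of 3.61 and 3.20 CPM. Hist2h3c1 lies wholly within the bounds of Gm20634 on the same strand, and how reads there were divided is likewise not given. Over all 67 genes the sum was 492 ± 33.4 CPM in Axl KO and 474 ± 29.6 CPM in WT (SD, n = 5 each), a ratio of 1.04, and single mice ran from 452 to 540 CPM in Axl KO and from 450 to 525 CPM in WT. In bulk tissue, fewer cells of a type and less RNA per cell cannot be told apart.

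Many of these genes are near copies, which limits the values of single genes and the sums over sets of them. The share of a gene's 50-base windows that occur in no other annotated gene was between 0% and 100%, with a median of 68.0% for the tested genes, 34.7% for those counted but not tested and 10.8% for the 6 without a count. It was under 20% for 5 of the 33 tested genes, including Hist2h2bb, Hist2h3c1 and Hist2h3b at 0%. Hist2h2bb lies wholly within the bounds of Gm42743 and Gm20628, Hist2h3c1 within Gm20634 and Hist2h3b within Gm20628. Windows shared with such an overlapping gene also count as not unique, so the 0% of these genes is not a measure of near copies alone. Hist2h2bb shared windows with only 2 other genes. The median was 69.4% for the long genes and 30.7% for the short ones. By family it was 98.9% for H1, 60.5% for H4, 53.1% for H2B, 38.0% for H3 and 27.0% for H2A. Of the genes without a count, Hist1h2aa and Hist1h2ba, known from the male germ line, had 76.2% and 61.8% of their windows to themselves. How reads that fit several copies were counted is not given in the sources used here, so a low count of a gene with few windows of its own is uncertain. The same holds for the low sums of short genes and of families with few such windows.

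**Figure D3:**
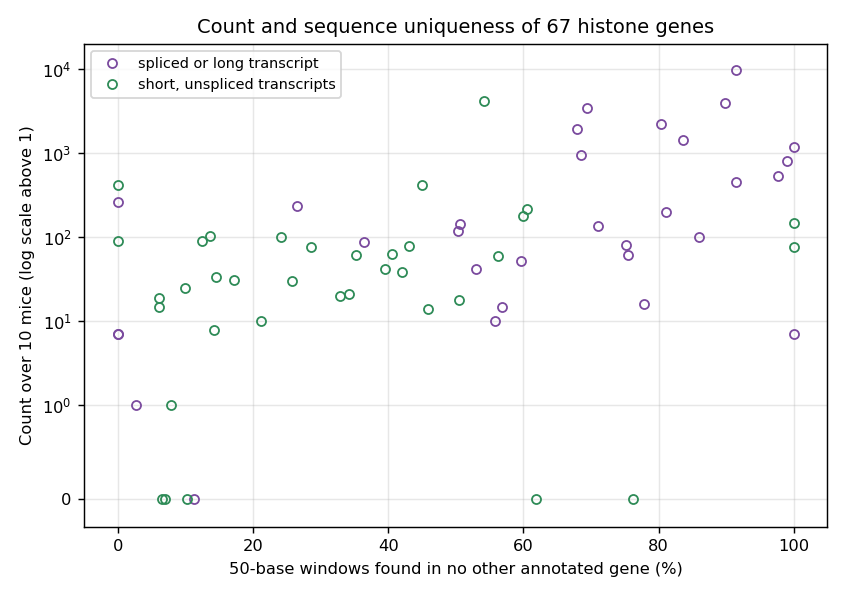
Count summed over the 10 mice (y axis, log scale above 1) against the share of 50-base windows found in no other annotated gene (x axis, percent) for the 67 histone genes, in purple where an annotated transcript is long and in green where all are short. The 5 genes with the most counts all have over 54% of their windows to themselves, and of the 6 genes at 0 counts 4 have under 20%.

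Opposite-strand genes inside a histone gene took few counts. In 17 cases an annotated gene on the opposite strand lies inside a histone gene, and these 17 partners held 8 counts in all, against 1705 on the histone genes around them. The partners cover only 129 to 144 bases each, while the 1705 counts are over whole histone genes, 963 of them on Hist3h2a. The 2 numbers are therefore not at equal length. Of the partners, Gm44492 inside Hist2h2ac held 6 counts against 415. Over all 23 overlaps with a gene on the opposite strand the partners held 169 counts, against 2373 on the histone genes. Partners that reach beyond the histone gene could hold more than it, as Gm20633 with 71 counts against 7 on Hist2h2aa1 and Gm20632 with 56 against 7 on Hist2h2aa2. The 2 entries for Rmrp in the tables were identical in all 10 mice, at 140366 counts each, and only 1 of them was used. Whether reads in a same-strand overlap were counted for both genes is not given in the sources used here. If they were, sums that hold both Hist1h1e and Hist1h2be count some reads more than once.

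The histone genes bear on how the RNA was selected, since mRNAs that lack a poly(A) tail are largely lost when poly(A) RNA is captured. The labels name polyA RNA as the molecule, while the study's methods describe depletion of rRNA, and both name a TruSeq RNA kit. Other RNAs without a poly(A) tail were abundant in every mouse. Rn7sk, the 7SK RNA that holds back transcription elongation, had a mean of 7556 CPM, Rpph1, the RNA of RNase P, 3514 CPM, and Rmrp, the RNA of RNase MRP, 1927 CPM. Rn7sk alone was 12.4 to 18.8 times the sum of all 67 histone genes in the same mouse, and Rmrp 3.45 to 5.01 times. Malat1, a nuclear RNA whose mature end carries an encoded A-rich stretch in place of a poly(A) tail, was at 6140 CPM. Per kilobase, Rn7sk was at 22829 CPM, Rpph1 at 11017, Rmrp at 7111 and Malat1 at 879, against 121 for Hist1h4h. The list of 16 such RNAs, of which 13 had a count, summed to 12366 to 17475 CPM, and 2943 genes annotated as snoRNA, scaRNA or snRNA, a set added after the data were seen, to 3231 to 4533 CPM. Of the 121 of these tested, 95 were higher and 26 lower in Axl KO with a median log2 fold change of 0.18, 0 were called, and 19 had an unadjusted p below 0.05, all of them higher. Over all tested genes 49.7% were higher in Axl KO, and 4.47% were higher at an unadjusted p below 0.05. Which of the descriptions applies to these libraries was not tested.

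**Figure D4:**
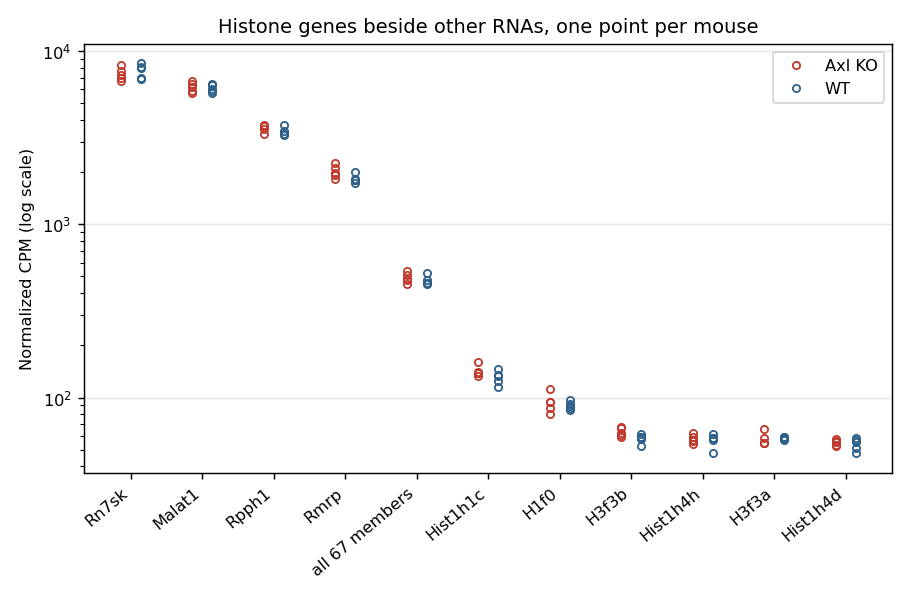
Normalized CPM (y axis, log scale) in each mouse (Axl KO red, WT blue) of RNAs without a poly(A) tail, the sum of all 67 histone genes, the histone genes Hist1h1c, Hist1h4h and Hist1h4d, and the replication-independent genes H1f0, H3f3b and H3f3a. Rn7sk, Malat1, Rpph1 and Rmrp lie above the sum of the histone genes in all 10 mice, and Hist1h4h and Hist1h4d lie near H3f3a at about 58 CPM.

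Of the list of 16 RNAs 11 were tested, 8 of them higher and 3 lower in Axl KO, and 0 were called. Rn7sk was at 7402 ± 628 CPM in Axl KO and 7710 ± 699 CPM in WT (SD, n = 5 each, adjusted p = 0.860), Rpph1 at 3607 ± 172 and 3422 ± 204 CPM (adjusted p = 0.752), and Rmrp at 2022 ± 174 and 1832 ± 99.8 CPM (adjusted p = 0.609). An unadjusted p below 0.05, which 8.32% of all tested genes had, was found for Rnu12, Rny3 and Rn7s2, named after their values were seen. Of these Rn7s2, a 7SL RNA with a near copy in Rn7s1, varied most, at 225 ± 217 CPM in Axl KO and 1337 ± 2265 CPM in WT (adjusted p = 0.577).

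None of the replication-independent histone genes was called either. Of 11 genes 9 were tested, 4 were higher and 5 lower in Axl KO, 0 were called and 0 had an unadjusted p below 0.05. H1f0 was at 93.6 ± 11.6 CPM in Axl KO and 89.9 ± 4.62 CPM in WT, H3f3b at 63.3 ± 3.51 and 58.1 ± 3.31 CPM, and H3f3a at 57.8 ± 4.69 and 58.1 ± 0.82 CPM (SD, n = 5 each, adjusted p = 0.865, 0.605 and 0.987). Among the factors that process histone mRNA, 15 of 16 measured were tested, with 11 higher and 4 lower in Axl KO and 0 called. Slbp, whose product binds the stem-loop, was at 23.2 ± 3.12 CPM in Axl KO and 22.2 ± 1.65 CPM in WT (log2 fold change 0.06, SE 0.09, adjusted p = 0.884). Sympk, Upf1 and Cpsf2, which act in cleavage or decay of these mRNAs, had log2 fold changes of 0.04, -0.01 and 0.09 with adjusted p of 0.884, 0.990 and 0.688, and Srrt, named after its values were seen, had an unadjusted p of 0.025 and an adjusted p of 0.577. Of 17 histone chaperones 16 were tested, 8 higher and 8 lower, and 0 were called, with Nap1l4, Atrx and Nap1l1 at means of 164, 143 and 63.3 CPM.

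Proliferation genes differed in level, and none was called in either direction. Of 24 S-phase and proliferation genes 15 were tested, with 7 higher and 8 lower in Axl KO and 0 called. Rrm1, a subunit of ribonucleotide reductase, had a mean of 46.4 CPM, Pcna, the replication clamp, 23.9 CPM, and Mcm7, of the replicative helicase, 16.4 CPM. Tyms and Cdc6, named after their values were seen, were higher in Axl KO at an unadjusted p of 0.016 and 0.0067, with an adjusted p of 0.577 for both. Mki67, the gene of the Ki-67 antigen of cycling cells, was at 3.71, 4.83, 12.5, 1.90 and 0.93 CPM in Axl KO and at 4.79, 3.64, 4.61, 4.26 and 10.4 CPM in WT. Axl KO replicate 3 and WT replicate 5 stood apart from the others in Mki67, and so did they in Top2a, the topoisomerase of dividing cells, at 6.52 and 6.16 CPM against 0.62 to 2.78 CPM elsewhere.

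The summed short histone genes were highest in the same mice, with Hist1h4h included or left out. All 36 summed to 104 CPM in Axl KO replicate 3 and 102 CPM in WT replicate 5, against 78.5 to 96.0 CPM elsewhere. Leaving Hist1h4h out was not planned, and it widened the gap. The 10 markers of proliferating cells summed to 6.96, 8.90, 27.1, 5.98 and 5.05 CPM in Axl KO and to 11.5, 9.85, 10.4, 9.54 and 23.5 CPM in WT. The 35 short genes other than Hist1h4h summed to 29.1, 30.0, 44.3, 27.4 and 29.5 CPM in Axl KO and to 33.1, 34.8, 32.6, 31.0 and 45.0 CPM in WT, so Axl KO replicate 3 and WT replicate 5 were again above all others. Long histone genes did not follow that order, at 397, 366, 403, 395 and 448 CPM in Axl KO and 384, 364, 359, 383 and 423 CPM in WT, where Axl KO replicate 5 was the highest. Hist1h4h, at 59.3 and 57.2 CPM in these mice, lay within the range of the rest, and Hist2h2ac, at 5.48 and 4.40 CPM, did too.

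Among the tested histone genes, both mice lay above all others for 5 of 33, Hist1h1b, Hist1h1d, Hist1h2bb, Hist1h2bn and Hist2h2bb, or 4 of the 13 tested short genes and 1 of the 20 tested long ones, Hist1h1d. The same held for 689 of all 13733 tested genes (5.02%). Hist2h2bb shares its whole stretch with Gm42743 on the same strand, as given above. These mice were noticed after the values were seen, so the figures are a description with no test. Hist1h1b, which encodes H1.5 and has a sequence of its own in every window, stood at 3.38 CPM in Axl KO replicate 3 and 3.14 CPM in WT replicate 5, and at 0.91 to 2.46 CPM in the other mice. Without Axl KO replicate 3 its log2 fold change moved from -0.27 to -0.72, with an unadjusted p of 0.034 and an adjusted p of 0.299.

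Markers of macrophages were also highest in these mice, with a sum over 8 genes of 231 CPM in Axl KO replicate 3 and 221 CPM in WT replicate 5, against 127 to 195 CPM in the rest, and 5 of the 8, including Lyz2, Mrc1 and Csf1r, lay above all others in both. All 8 macrophage markers had counts in every mouse, and of the 10 proliferation markers 6 were at 0 in some mouse. The 8 markers of B and T cells, with Cd4, Cd79b and Ms4a1 on top, summed to 1.21 to 2.89 CPM and gave no tested gene. None of the 8 macrophage markers was called, nor any of the 10 skeletal muscle markers, all of which were lower in Axl KO, nor any of the 11 brown adipocyte markers, of which 10 were higher and 5 had an unadjusted p below 0.05 (Ucp1, Cox8b, Cox7a1, Dio2 and Elovl3). Over all tested genes 49.7% were higher in Axl KO and 8.32% had an unadjusted p below 0.05. Skeletal muscle markers summed to 1605 and 746 CPM in the 2 mice, within the range of the rest. Their part in the histone values was not tested.

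**Figure D5:**
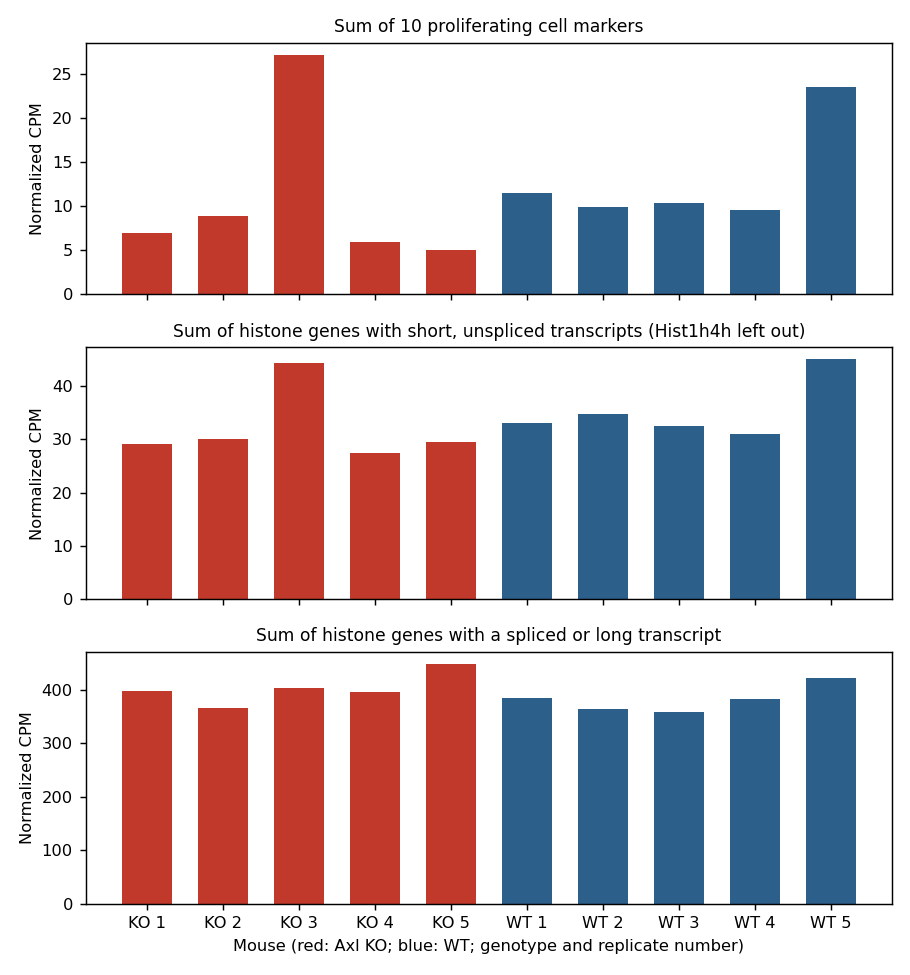
Summed normalized CPM (y axes, from 0) per mouse (x axis, Axl KO red, WT blue) of 10 proliferating cell markers, of the 35 histone genes with short transcripts other than Hist1h4h, and of the 31 with a long transcript. Axl KO replicate 3 and WT replicate 5 are the highest in the upper and middle panels, at 27.1 and 23.5 CPM and at 44.3 and 45.0 CPM. In the bottom panel Axl KO replicate 5 is the highest at 448 CPM, followed by WT replicate 5 at 423 CPM and Axl KO replicate 3 at 403 CPM.

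With both of these mice left out, 0 of the 31 histone genes then tested were called, and the ratio of the summed levels in Axl KO over WT was 1.06. The skeletal muscle markers had a median sum of 564 CPM in Axl KO and 2859 CPM in WT, and the groups overlapped. None of the 10 had an unadjusted p below 0.05 by edgeR. The 2 mice with the least, Axl KO replicates 1 and 2 at 22.9 and 5.28 CPM, had histone sums of 483 and 452 CPM. The part of muscle RNA in the histone values was not tested. The ratio stayed between 1.01 and 1.07 with any single mouse left out.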

How the data were processed

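RNA of iBAT was made into TruSeq libraries, from poly(A) RNA by the labels and after depletion of rRNA by the study's methods. The authors deposited raw read counts per Ensembl gene for each mouse, which were used as they stand. The submitters' processing notes list bcl2fastq, Trimmomatic 0.36, STAR 2.6.1c, DESeq2 and GRCm38.p5, whereas the study's methods name Trim Galore and hisat2. Strand settings and the handling of multi-mapped reads are not given in the sources used here. Genes were named with GENCODE vM21 (41163 of 41249 identifiers). The members and lists were chosen with earlier results of these data known. Counts were fitted in edgeR 4.0.16 (R 4.3.3) by the quasi-likelihood test without covariates, with TMM scaling, genes with a mean above 1 normalized CPM (13733) and Benjamini-Hochberg adjustment over all of them. Exact permutation tests were two-sided over the 252 splits of 10 mice, with 0.0079 as the smallest p possible. DESeq2 1.42.0 was an alternative. The scripts were tested on simulated data. No genome sequence was used, so stem-loops were sought in annotated transcripts. Named were the 10 members with the highest mean CPM, any tested member with an unadjusted p below 0.05 or no overlap between groups, the 2 on either side of 1 CPM, the 3 highest genes of each list with Mki67, Top2a and Slbp, Axl, and the short member with a stem-loop and the most counts. Nothing shows whether mice with the same replicate number were paired. The study's methods describe littermates housed together, but no label states which mice shared a litter or cage. The p-values treat the mice as independent, so shared litters or cages are not taken into account.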

Additional observations from a re-analysis of the deposited data

Results flagged for a closer look

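In groups of 5 mice, 9 of 62 checks found a mouse far from the other 4 of its group. For independent checks chance gives about 1 in 20. These checks share genes and mice, and the sums without Hist1h4h were not planned, so no excess can be read from the count. Hist1h1c was at 161 CPM in Axl KO replicate 5, with the nearest Axl KO mouse at 141 CPM. Hist1h4k was at 1.31 CPM in Axl KO replicate 4, with the nearest at 0.82 CPM. The short histone genes without Hist1h4h summed to 44.3 CPM in Axl KO replicate 3 (nearest 30.0 CPM) and to 45.0 CPM in WT replicate 5 (nearest 34.8 CPM). In the same mice the S-phase and proliferation genes summed to 162.6 CPM (nearest 131.0 CPM) and 149.6 CPM (nearest 133.6 CPM), and the 10 proliferating cell markers to 27.1 CPM (nearest 8.90 CPM) and 23.5 CPM (nearest 11.5 CPM). The snoRNA, scaRNA and snRNA genes summed to 4533 CPM in Axl KO replicate 2 (nearest 3844 CPM).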

How the results depend on the processing

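No histone gene was called under DESeq2, RLE size factors, a filter by expression, no filter (61 members tested), a robust fit, protein-coding genes alone, the replicate block, any single mouse left out, or both Axl KO replicate 3 and WT replicate 5 left out, which was chosen after seeing the data. The count of all genes called was 1 in all of these fits except DESeq2, which called 9. The median log2 fold change of the members changed sign between fits but ran from -0.047 to 0.054 with single mice left out. Same-numbered mice did not deviate together (correlations from -0.36 to 0.37), so the numbers were not used as pairs. With the replicate block 1 gene was called and the median of the members was 0.0053. The ratio of summed CPM was 1.01 to 1.07 with single mice left out and 1.02 without Hist1h1c. The 33 members above 1 CPM stayed 33 under each scaling. The share of counts on long genes was 81.0% with any annotated transcript used, and 91.9% with Hist1h4h left out, a step that was not planned. Of 206 values for single named members 8 changed sign, all with a single mouse left out, for Hist1h1e (-0.0067 to 0.21), Hist1h4d (-0.016 to 0.057), Hist1h4h (-0.026 to 0.059) and Hist2h2be (-0.125 to 0.069), and the lowest adjusted p of these 12 members was 0.415. Over all tested members it was 0.299, for Hist1h1b without Axl KO replicate 3. Depth limits the genes near 1 CPM, such as Hist1h1a with 76 counts over the 10 mice.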
